A study of Mus musculus with 4 samples.

Results

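Interstitial progenitors are the mesenchymal cells that fill the space around the supporting cells of the early gonad. They were taken here as all cells that the deposited annotation names interstitial cells, 3440 of 52745 cells in gonads dissected with the attached mesonephros. XY control gonads at E11.5 gave 1305 of them, XY miR-17~92 knockout (KO) gonads at E11.5 gave 1191, XY KO gonads at E11.75 gave 717 and XX control gonads at E11.5 gave 227. Each group was 1 pool of 3 to 4 pairs of gonads, so no test across samples was possible and every interval below covers counting error only. The labels give the strain C57BL/6 x 129S4/SvJae for all 4 samples, while the methods give a hybrid of C57BL/6J and 129 for the embryos sequenced. XY embryos grew by tetraploid complementation from G4 embryonic stem cells, an XY hybrid line, either unmodified for the control or with both copies of the miRNA cluster removed by CRISPR/Cas9 in every cell for the KO. A pool was therefore made of isogenic embryos of the same stem cell line. Clones were picked and expanded for the KO, so clone and deletion cannot be told apart in any ratio of a KO sample to the XY control. XX embryos came from natural matings of C57BL/6J males with 129 females. The E11.75 KO sample had no control of its stage, so that stage and deletion cannot be told apart in its comparison with the XY control.

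At this stage the interstitial cells of the mouse gonad are progenitors. In the fetal testis they later give rise to Leydig cells, which make androgens, as well as to other stromal cells. Pdgfra encodes a receptor tyrosine kinase for platelet-derived growth factors, Tcf21 and Nr2f1 encode transcription factors of mesenchyme, and Wnt5a encodes a secreted WNT ligand. Sertoli cells signal to interstitial cells of the testis through Desert hedgehog and platelet-derived growth factors, and Ptch1 and Gli1 are the usual readouts of hedgehog signalling.

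The interstitial cells held 4747561 UMIs (unique molecular identifiers, each a counted mRNA molecule) in the XY control, 5185479 in the E11.5 KO, 2689271 in the E11.75 KO and 3352820 in the XX control. Median depth was 3483, 4209 and 3484 UMIs per cell in the 3 XY samples in this order, against 13830 in the XX control, which was also filtered by a different procedure. The libraries of 1 sample were technical runs of the same cell suspension and were summed. Between any pair of libraries 1 to 40 cell barcodes were shared, at most 0.687% of the smaller library, and at most 1 shared barcode was of an interstitial cell. Values are given as CPM, a gene's summed UMIs per 1000000 UMIs of the interstitial cells of that sample. Log2 ratios are of CPM and, unless stated otherwise, relative to the median gene of the comparison, with a 95% interval in parentheses. A gene was tested where it held at least 200 UMIs over both samples and was called past 1.5-fold where its relative log2 ratio was at least 0.585 on either side of 0.

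The deleted cluster on chromosome 14 encodes 6 miRNAs whose mature forms fall into 4 seed families. Their sequences, from RefSeq on GRCm38.p6, are printed because the seed, bases 2 to 8 in capitals, sets which target sites are searched for later. miR-17-5p and miR-20a-5p share a seed, as do miR-19a-3p and miR-19b-3p, whereas miR-18a-5p and miR-92a-3p each have their own.
miR-17-5p: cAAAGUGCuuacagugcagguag
miR-20a-5p: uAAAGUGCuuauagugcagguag
miR-18a-5p: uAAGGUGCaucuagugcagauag
miR-19a-3p: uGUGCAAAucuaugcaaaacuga
miR-19b-3p: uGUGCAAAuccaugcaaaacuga
miR-92a-3p: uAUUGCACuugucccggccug

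Mir17hg, the host transcript from which the cluster is processed (chr14:115042879-115046727), was read at 15.6 CPM in the XY control, 119 in the E11.5 KO, 119 in the E11.75 KO and 12.8 in the XX control. The KO samples stood above both controls in every run, at 113 to 124 CPM against 10.8 to 16.3. The relative log2 ratio over the XY control was 3.05 (2.71 to 3.43) at E11.5 and 2.82 (2.46 to 3.21) at E11.75. With each cell thinned to 3000 UMIs, 30.4% of interstitial cells of the E11.5 KO held a Mir17hg UMI, beside 34.2% of germ cells and 26.6% of immune cells of the same sample, and unrelated cell types thus had it at a like share. A 3′ library counts the end of this transcript and not the miRNA hairpins, so this value separates the KO from the control libraries without being a check of the deleted bases.

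The label was checked against its 4 markers. Pdgfra (chr5:75152292-75198215) stood at 322 CPM in interstitial cells of the XY control, 385 in the E11.5 KO, 753 in the E11.75 KO and 208 in the XX control. Tcf21 (chr10:22817281-22820174) stood at 539, 610.2, 439.5 and 602 CPM and Wnt5a (chr14:28504750-28527448) at 162, 239.9, 442 and 131 CPM in the same order. All 3 genes were highest in interstitial cells among the 13 deposited types in each of the 4 samples. Their next levels came from coelomic epithelium and mesonephric mesenchyme. In the XY control Tcf21 stood at 497 CPM and Wnt5a at 161.9 CPM in coelomic epithelium, so that Wnt5a hardly separated these types, and Pdgfra stood at 215 CPM in mesonephric mesenchyme.

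Nr2f1 (chr13:78188973-78199757) did not mark these cells. It stood at 135, 119, 100.8 and 157 CPM in interstitial cells, the fifth highest type in the XY samples and the fourth in the XX control. In the XY control Nr2f1 reached 500.3 CPM in adrenal cells, 303 in mesonephric mesenchyme, 178 in mesonephric epithelium and 165 in supporting-like cells. Nr2f2, the close relative of Nr2f1, named here after its values were seen, stood at 538 CPM in interstitial cells and 602 in mesonephric mesenchyme. The label thus held for 3 of its 4 markers. Since the clusters were formed from these genes, these levels describe the cells and test nothing.

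**Figure D1:**
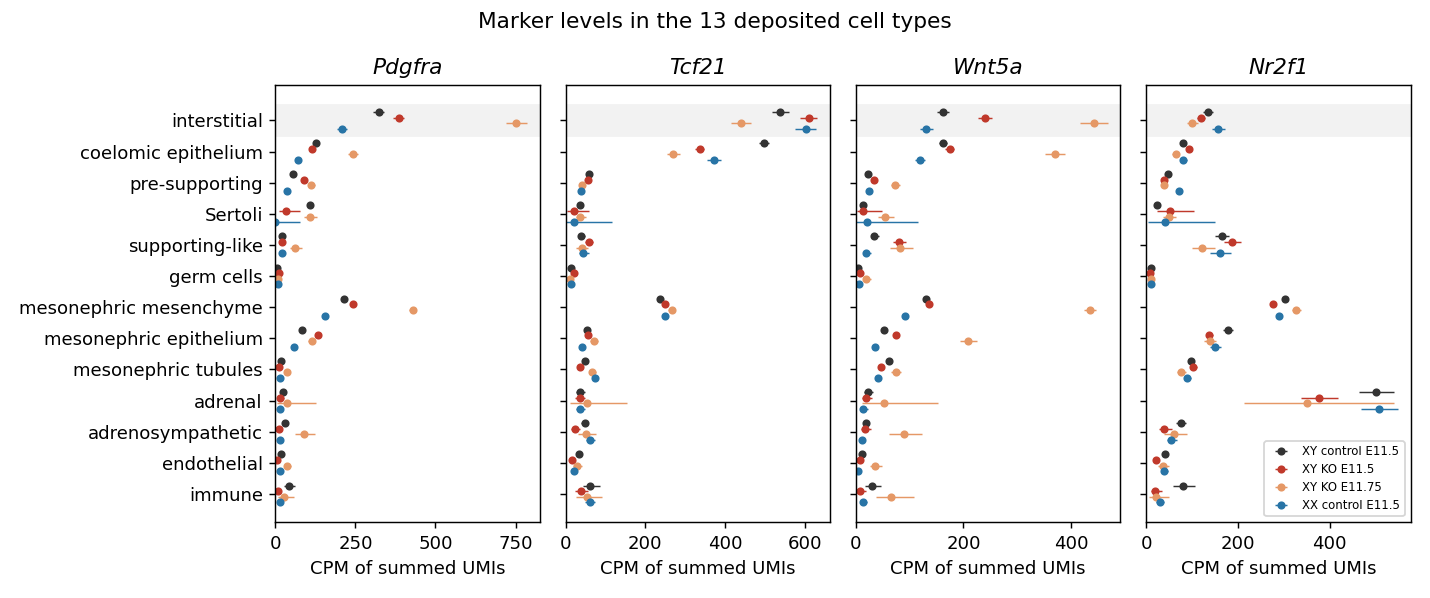
Level of the 4 markers (x axis, CPM of summed UMIs) in each of the 13 deposited cell types (y axis) in the 4 samples (colours), with exact 95% Poisson intervals as bars. Pdgfra, Tcf21 and Wnt5a are highest in the shaded interstitial row in each sample, with coelomic epithelium and mesonephric mesenchyme next, whereas Nr2f1 is highest in adrenal cells.

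Per cell, the markers were patchy. Thinning to 3000 UMIs kept 891 interstitial cells of the XY control, 1042 of the E11.5 KO, 492 of the E11.75 KO and 225 of the XX control, and left out 414, 149, 225 and 2. In the XY control 5.61% of the thinned cells held no UMI of any of the 4 markers, 28.6% held 1 marker, 41.8% held 2, 20.9% held 3 and 3.14% held all 4. The E11.5 KO had a similar spread, with 42.0% of cells holding 2 markers and 5.37% holding 4. In the E11.75 KO the most frequent number was 3, in 40.2% of cells.

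A Pdgfra UMI was held by 54.2% of thinned cells in the XY control, 56.5% in the E11.5 KO, 78.3% in the E11.75 KO and 40.9% in the XX control. Germ cells, which should lack Pdgfra, gave 1.08% to 2.53%. The difference from the XY control was 2.32 percentage points (-2.20 to 6.83) in the E11.5 KO, 24 (18.9 to 28.9) in the E11.75 KO and -13.3 (-20.6 to -5.81) in the XX control. Only the last 2 intervals exclude 0. For Wnt5a the shares were 34.6%, 46.6%, 68.1% and 28.9%, beside 1.19% to 2.65% of germ cells. Wnt5a was thus found in 12.1 percentage points (7.62 to 16.5) more cells in the E11.5 KO and in 33.5 (28.1 to 38.7) more in the E11.75 KO. Tcf21 was detected in 71.2% of cells of the XY control, and its share was 2.54 percentage points lower in the E11.5 KO (-6.69 to 1.64), 8.15 lower in the E11.75 KO (-13.5 to -2.87) and 7.07 higher in the XX control (0.404 to 13.1). The Tcf21 difference of the XX control changed sign with cells thinned to 5000 UMIs. Nr2f1 shares ran from 22.2% to 31.6%, beside 21.6% of immune cells and 2.88% of germ cells of the XY control. The immune value is a weak reference, since the 220 immune cells of the XY control had a median of 1488 UMIs. Most of them thus fell under the thinning depth. The difference of Nr2f1 from the XY control was -5.23 percentage points (-9.95 to -0.341) in the E11.75 KO, and the intervals of the other 2 samples hold 0. Without thinning, at median depths of 13830 and 3483 UMIs, the XX control had Pdgfra in 21.4 percentage points more cells than the XY control.

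Interstitial cells made up 17.99% (17.1% to 18.9%) of the cells of the 6 gonadal types in the XY control, 24.98% (23.8% to 26.2%) in the E11.5 KO, 23.6% (22.1% to 25.1%) in the E11.75 KO and 23.1% (20.5% to 25.9%) in the XX control. The XY control stood lowest, and its interval did not overlap those of the other 3 samples, which overlapped each other. The technical runs were close, with 17.7% and 18.3% in the XY control, 25.1% and 24.9% in the E11.5 KO and 23.5% and 22.7% in the XX control. A share depends on the other types too. Sertoli cells, which support germ cells in the testis, numbered 752 of the 7254 gonadal cells of the XY control, 24 of 4767 in the E11.5 KO, 168 of 3043 in the E11.75 KO and 2 of 983 in the XX control. Without Sertoli and pre-supporting cells the interstitial shares were 26.8%, 32.5%, 36.8% and 36.1%, an alternative chosen after seeing the data. Over all cells, mesonephros included, they were 5.55% (5.26% to 5.85%), 6.98% (6.6% to 7.38%), 8.44% (7.86% to 9.05%) and 6.19% (5.43% to 7.02%), so that the intervals of the XX control and the XY control overlapped and those of the 2 KO samples did not overlap each other. With 1 pool per group the variation between pools is unknown.

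**Figure D2:**
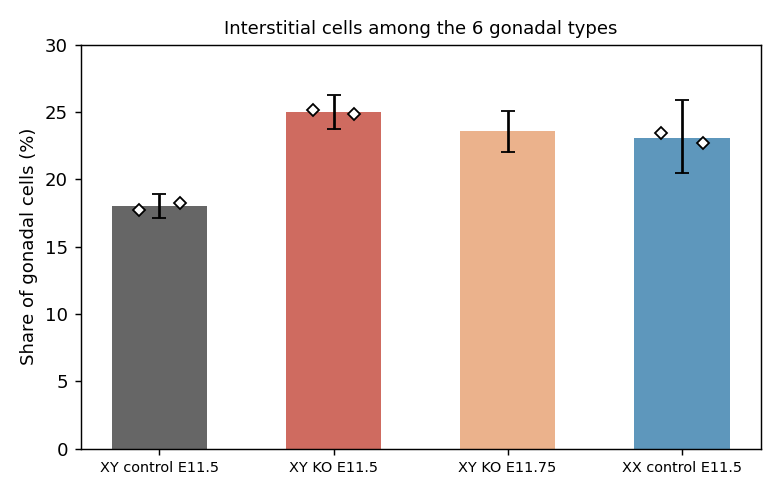
Share of interstitial cells among the cells of the 6 gonadal types (y axis, percent) in each sample (x axis), with exact 95% Clopper-Pearson intervals; the single technical runs are drawn beside the pooled value. The XY control sits at 17.99% and the other 3 samples between 23.1% and 24.98%, with runs of 1 sample close together.

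The genes that set interstitial cells apart from the other gonadal types were receptors, matrix proteins and integrins. The 15 leading genes were those with the highest ratio of CPM to the highest other gonadal type in the XY control, such as 13.4 for Col6a3 and 4.32 for Col1a1, a fibrillar collagen chain. They included Itga8 and Itga9, integrin subunits, Col6a2 and Col6a3, collagen VI chains, and Pdgfrb, the second receptor for platelet-derived growth factors. Most of these genes were also high in mesonephric mesenchyme, in which Pdgfrb stood at 183 CPM against 119 in interstitial cells of the XY control, Col1a1 at 710.3 against 478 and Bgn, a small proteoglycan, at 237 against 211. Cyp1b1, a cytochrome P450, was the other way round, with 66.6 CPM in mesonephric mesenchyme against 139.9, and Clca3a1 stood at 45.0 against 173.

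Cyp1b1 stood at 139.9 CPM in interstitial cells of the XY control, 68.7 in the E11.5 KO, 189 in the E11.75 KO and 109 in the XX control. Pdgfrb stood at 119, 62.1, 144 and 104 CPM in the same order. The E11.5 KO was the lowest sample for both genes, and its 2 runs, at 58.4 and 65.6 CPM for Pdgfrb, stayed under the runs of the XY control at 125 and 113. The relative log2 ratio of the E11.5 KO over the XY control was -0.90 (-1.09 to -0.71) for Cyp1b1 and -0.81 (-1.02 to -0.61) for Pdgfrb. Of the 15 leading genes 14 were below the median gene in this comparison and 8 were past 1.5-fold lower, against 2.22% of the 7088 genes tested. None was past 1.5-fold higher, against 1.9% of all. Hic1, a transcriptional repressor and the single gene above the median gene, stood at 77.1, 71.0, 116 and 51.9 CPM, and Col1a1, at 478, 432, 845 and 385 CPM, had a relative log2 ratio of -0.02 (-0.10 to 0.07).

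These genes were picked for high values in the XY control, which by itself favours lower values in a sample set against it. With the 15 genes picked in the XX control instead, 6 of them shared, 13 of 15 were below the median gene in the E11.5 KO over the XY control, 7 were past 1.5-fold lower and the median relative log2 ratio was -0.53, beside -0.66 for the first choice. That alternative was added after seeing the data. In the XX control over the XY control, 1 of the 15 genes first chosen was past 1.5-fold higher and 1 lower, with a median of -0.31. The background there was 1.57% of 6365 genes higher and 3.22% lower. The genes first chosen were also read in other types, in the E11.5 KO over the XY control. In coelomic epithelium 3 of 11 tested were past 1.5-fold lower and 1 higher, against 1.94% and 1.88% of all genes. In mesonephric mesenchyme 2 of 15 were lower and none higher, against 1.93% and 2.23%. Their medians were -0.39 and -0.20. None of 4 passed in pre-supporting cells, and the 1 tested in supporting-like cells was higher.

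**Figure D3:**
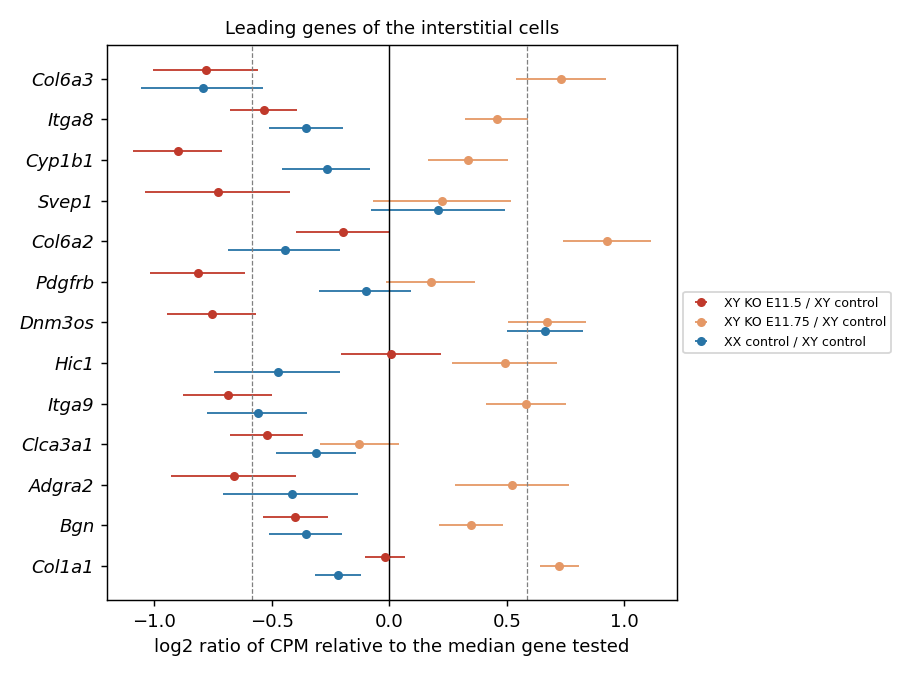
Relative log2 ratio to the XY control (x axis, 0 being the median gene tested) of 13 of the 15 leading genes (y axis) in the E11.5 KO, the E11.75 KO and the XX control (colours), with 95% intervals of counting error. In the E11.5 KO the points of 12 of these genes lie left of 0, with Cyp1b1 farthest at -0.90, whereas 12 of those of the E11.75 KO lie right of 0.

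Across all genes, 135 of 7088 tested in interstitial cells were past 1.5-fold higher in the E11.5 KO than in the XY control and 157 lower. Between the 2 technical runs of the same sample 0.132% to 0.662% of genes passed the same threshold. Beyond Mir17hg, the genes highest in the E11.5 KO and on the same side in the E11.75 KO were Slc16a3, Adm, Alcam, Bnip3, Plxna4, Rspo1, Mylip, Slc1a6 and Cxadr, with relative log2 ratios from 1.47 for Slc16a3 (1.14 to 1.81) to 1.17 for Cxadr (0.82 to 1.54).

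Alcam, an adhesion molecule of the immunoglobulin family, stood at 62.3 CPM in the XY control, 146 in the E11.5 KO, 195 in the E11.75 KO and 46.5 in the XX control. Plxna4, a receptor for semaphorins, stood at 24.2, 55.3, 80.3 and 9.54 CPM, and Rspo1, a secreted activator of WNT signalling needed for ovary formation, at 42.5, 96.8, 81.1 and 31.9 CPM. For all 3 genes both KO samples were above both controls. Rspo1 is also a marker of pre-supporting cells, and the part of these cells in its value was not tested. Relative log2 ratios of the E11.5 KO were 1.36 (1.16 to 1.56) for Alcam, 1.32 (1.0 to 1.64) for Plxna4 and 1.31 (1.07 to 1.56) for Rspo1. Those of the E11.75 KO were 1.55 (1.34 to 1.76), 1.63 (1.30 to 1.97) and 0.83 (0.55 to 1.11). Mylip, a ubiquitin ligase that lowers lipoprotein receptors, stood at 20.6, 45.7, 45.4 and 13.7 CPM. Adm, which encodes the peptide adrenomedullin, stood at 15.8, 38.0, 21.2 and 6.56 CPM and was thus high at E11.5 in the KO sample alone.

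H19, an imprinted non-coding RNA (chr7:142575529-142578143), was nearly lost from KO cells. It held 3147 UMIs in the XY control, 22 in the E11.5 KO, 5 in the E11.75 KO and 3282 in the XX control, which is 663, 4.24, 1.86 and 979 CPM. An H19 UMI was found in 52.9% of thinned cells of the XY control and 0.960% of those of the E11.5 KO, beside 12.8% of germ cells of the XY control. The relative log2 ratios over the XY control were -7.13 (-7.84 to -6.56) and -8.44 (-10.20 to -7.35). Its neighbour Igf2, the growth factor gene silenced where H19 is active, stood at 57.9, 69.8, 96.3 and 45.3 CPM, with ratios of 0.40 (0.17 to 0.63) and 0.63 (0.38 to 0.88). The KO embryos came from picked and expanded clones of the parental stem cell line. Clone and deletion thus cannot be told apart in this value, as in any KO ratio over the control. Of the other imprinted genes tested, Dcn and Plagl1 also passed 1.5-fold lower in the E11.5 KO, 3 of 29 with H19, and none higher, against 2.22% and 1.9% of all genes.

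Other genes among the lowest in the E11.5 KO and on the same side in the E11.75 KO were Dppa5a, Rasgrp2, Cpa1, Alx1, Cerk, Ostf1, Akr1cl and Bst2. Alx1, a homeobox gene of mesenchyme, stood at 35.0, 12.5, 19.7 and 57.6 CPM, with a relative log2 ratio of -1.35 (-1.79 to -0.93). Dppa5a, a germ cell gene, stood at 52.7, 13.5, 17.5 and 38.8 CPM, with a ratio of -1.83 (-2.24 to -1.45), and Akr1cl at 38.1, 14.8, 16.4 and 25.1 CPM. A germ cell gene thus appeared in this list. All 10 germ cell markers were read in each sample, and together they made 126 CPM of the interstitial cells of the XY control, 46.1 of the E11.5 KO, 56.9 of the E11.75 KO and 86.5 of the XX control, against 7455 in germ cells of the XY control. The part of germ cell RNA in the value of Dppa5a was not tested. Globin and other erythroid markers, 10 genes all above 0 in each sample, summed to 3693, 1513, 1998 and 1115 CPM in the same order. The authors removed blood cells at a different cut-off of beta globin in each XY sample, highest in the XY control and lowest in the E11.5 KO. The part of this filtering in the erythroid sums was not tested. The 10 Sertoli markers summed to 40.0, 18.9, 30.1 and 14.9 CPM, against 2728 in Sertoli cells of the XY control, and Amh, which defines these cells, had 2, 0, 0 and 0 UMIs. The 10 endothelial markers summed to 107, 84.3, 102 and 83.8 CPM against 5644 in endothelial cells.

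None of the 8 hedgehog genes with enough UMIs to be tested was past 1.5-fold in the E11.5 KO, where 1.9% of all genes were higher and 2.22% lower. The ligands of the hedgehog pathway were hardly read in interstitial cells, where Ihh had no UMI in any sample, Dhh had 5, 2, 0 and 2 UMIs and Shh 1, 0, 2 and 0. The receptor Ptch1 stood at 39.8, 50.1, 77.3 and 24.5 CPM, the signal transducer Smo at 158, 161, 198 and 116 CPM, and the effector Gli1, a target of the pathway, at 10.5, 18.9, 23.8 and 9.25 CPM on 50, 98, 64 and 31 UMIs. Gli1 held too few UMIs to be tested and had a relative log2 ratio of 0.96 in the E11.5 KO. Both KO samples were above both controls for Gli1 and Ptch1. The relative log2 ratio of Ptch1 over the XY control was 0.46 (0.18 to 0.74) at E11.5, short of 1.5-fold, and 0.86 (0.57 to 1.15) at E11.75. The co-receptors Boc and Cdon and the effector Gli3, which represses the pathway when no ligand is present, had ratios of -0.10 (-0.42 to 0.21), -0.11 (-0.46 to 0.23) and -0.39 (-0.63 to -0.15) in the E11.5 KO. The median of the 8 tested genes was 0.03 above that of all genes.

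Of 4 genes for platelet-derived growth factors and their receptors tested in the E11.5 KO, Pdgfrb alone passed 1.5-fold lower and none higher, against 2.22% and 1.9% of all genes. The ratio of Pdgfrb is given above, and that of Pdgfra was 0.38 (0.29 to 0.48), short of 1.5-fold. The ligands Pdgfa, at 19.4, 24.1, 24.5 and 10.1 CPM, and Pdgfc, at 66.6, 69.0, 65.4 and 34.0 CPM, were not past 1.5-fold in the E11.5 KO, and Pdgfc was lower in the XX control with a ratio of -0.87 (-1.20 to -0.56). The enzymes of steroid synthesis were scarce. Cyp11a1, which makes the first step from cholesterol, had 10, 8, 1 and 10 UMIs, Cyp17a1 had 3, 1, 1 and 0, and Lhcgr, the receptor for luteinising hormone, had none in any sample. Star, which moves cholesterol into mitochondria, stood at 11.6, 9.64, 9.67 and 10.4 CPM, so that no sample stood out. The 10 adrenal cortex markers summed to 159, 132, 96.3 and 142 CPM in interstitial cells, against 2033 in adrenal cells.

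WNT genes passed 1.5-fold in both directions in the E11.5 KO, with 2 of 31 tested higher and 3 lower, against 1.9% and 2.22% of all genes. The higher ones were the ligands Rspo1 and Wnt5a, the latter with a relative log2 ratio of 0.69 (0.56 to 0.83). The lower ones were Ror1, the receptor tyrosine kinase that binds Wnt5a, at 30.3, 15.6, 42.0 and 26.5 CPM, Sfrp2, a secreted antagonist, at 54.3, 28.2, 32.4 and 56.7 CPM, and the ligand Wnt6 at 40.4, 23.1, 39.8 and 33.4 CPM. Sfrp2 was low in both KO samples, with ratios of -0.82 (-1.12 to -0.52) and -0.84 (-1.21 to -0.49), whereas Ror1 and Wnt6 were lowest in the E11.5 KO. Hey1, a target of Notch signalling, stood at 24.2, 46.3, 36.8 and 23.6 CPM, the only 1 of 7 Notch genes past 1.5-fold higher, and none was lower.

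Some feedback inhibitors of FGF signalling were low in the E11.5 KO. Spry2 stood at 64.2 CPM in the XY control, 27.2 in the E11.5 KO, 47.6 in the E11.75 KO and 67.7 in the XX control, Spry1 at 44.9, 21.2, 39.8 and 44.7 CPM, and Dusp6, a phosphatase of ERK, at 60.5, 33.0, 60.2 and 72.2 CPM. The E11.5 KO was the lowest of the 4 samples for all 3 genes. Their relative log2 ratios were -1.11 (-1.41 to -0.82), -0.95 (-1.30 to -0.61) and -0.75 (-1.03 to -0.47). Of their relatives, Spred1 had -0.56 (-0.73 to -0.39) and Spred2 -0.08 (-0.39 to 0.23), both short of 1.5-fold. The receptor Fgfr2 was higher, at 21.7, 31.2, 69.5 and 23.9 CPM, with 0.65 (0.29 to 1.02). In all, 1 of 10 FGF genes tested was past 1.5-fold higher and 3 lower, against 1.9% and 2.22% of all genes, with a median 0.46 under that of all genes. Immediate early genes, which respond both to growth factors and to dissociation, also differed. Egr1 stood at 64.7, 22.8, 185 and 206 CPM and Junb at 34.3, 14.5, 51.3 and 89.5 CPM, lowest in the E11.5 KO, and 5 of 19 genes of the dissociation response passed 1.5-fold lower there. Fosb, of the same response, went the other way at 18.3, 32.2, 94.4 and 22.4 CPM. The part of tissue handling in the FGF and immediate early genes was not tested.

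Of the 20 BMP and TGF-beta genes and the 15 genes of the IGF axis tested none was past 1.5-fold in the E11.5 KO, where 1.9% of all genes were higher and 2.22% lower. Among 10 genes of retinoic acid metabolism and signalling, Dhrs3, a retinal reductase, stood at 32.6, 50.9, 66.9 and 23.0 CPM, Crabp2, a binding protein, at 29.1, 42.2, 20.5 and 42.9 CPM, and Rdh10, which makes retinal, at 26.8, 15.4, 35.7 and 18.8 CPM. Dhrs3 was higher in both KO samples, with relative log2 ratios of 0.77 (0.48 to 1.06) and 0.94 (0.62 to 1.26). Rdh10 was past 1.5-fold lower and Crabp2 past 1.5-fold higher in the E11.5 KO, so that 2 of the 10 were higher and 1 lower. Emx2, a homeobox gene needed to form the gonad, stood at 107, 158, 198 and 68.9 CPM, the single 1 of 12 factors of the bipotential gonad past 1.5-fold higher in the E11.5 KO, with 0.69 (0.53 to 0.86). Lhx9 stood at 229.6, 305, 319 and 153 CPM and Gata4 at 60.9, 75, 99.7 and 39.1 CPM, both below that threshold in the E11.5 KO. For these 3 genes the KO samples were highest and the XX control was lowest. The 10 coelomic epithelium markers, of which Lhx9 is one summed to 323, 434, 431 and 222 CPM, with at most 1 member at 0. Of the 3 tested, Krt18 and Krt8 were past 1.5-fold higher in the E11.5 KO, with 0.89 (0.59 to 1.19) and 0.72 (0.38 to 1.07), against the same 1.9% of all genes. The 10 pre-supporting markers, Gata4 and Rspo1 among them, summed to 864, 896, 1278 and 571 CPM, with none at 0. Of the 5 tested, Rspo1 alone was past 1.5-fold higher in the E11.5 KO and none was lower. The part of these cell types in the values of Emx2, Lhx9, Gata4 and Rspo1 was not tested. Wt1 and Nr5a1, which also act in this early gonad, had ratios of -0.00 (-0.09 to 0.08) and 0.00 (-0.31 to 0.31) in the E11.5 KO.

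Of 35 matrix genes tested in the E11.5 KO 1 was past 1.5-fold higher and 4 were lower, against 1.9% and 2.22% of all genes, and their median was 0.10 under that of all genes. The higher one was Mfap4, a microfibril protein, at 102, 145, 149 and 106 CPM. The lower ones were Col14a1, at 90.4, 47.8, 95.6 and 86.8 CPM, Dcn, the proteoglycan decorin, at 142, 80.2, 215 and 141 CPM, Postn, at 61.5, 35.9, 95.6 and 63.8 CPM, and the leading gene Col6a3, at 95, 50.7, 169 and 51.3 CPM. Dcn and Postn were lowest in the E11.5 KO and highest in the E11.75 KO.

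The glycolysis list gave the most calls among the lists in the E11.5 KO. It also holds genes that are not glycolytic enzymes, such as Slc16a3, Bnip3 and Pdk1. Of 17 genes tested 12 were past 1.5-fold higher in the E11.5 KO and none lower, with a median 0.70 above that of all genes, against 1.9% of all genes higher. Tpi1, a glycolytic isomerase, stood at 227 CPM in the XY control, 436 in the E11.5 KO, 204 in the E11.75 KO and 168 in the XX control. Pdk1, which keeps pyruvate out of mitochondria, stood at 28.0, 57.3, 37.6 and 14 CPM, Slc16a3, a lactate exporter, at 22.1, 56.1, 27.5 and 11.9 CPM, and Bnip3, a mitophagy gene induced by hypoxia, at 13.5, 31.2, 18.6 and 9.84 CPM. The E11.5 KO was the highest sample for each. Tpi1 had a relative log2 ratio of 1.07 (0.96 to 1.17). In the E11.75 KO over the XY control none of the 14 glycolysis genes tested was past 1.5-fold higher and 5 were lower, against 7.71% and 12.4% of all genes. Over the E11.5 KO all 16 tested were lower, against 18.3% of all genes. The ratios of the E11.75 KO moved with 3′ UTR length, as given below. Set against genes of similar 3′ UTR length, 15 of the 16 were still past 1.5-fold lower over the E11.5 KO, with a median of -0.93. By that reference 1111 of 6253 genes passed in either direction. For the 5 lower over the XY control no such count is given. The difference of the E11.5 KO was not limited to interstitial cells, since 9 of 20 glycolysis genes were past 1.5-fold higher and 1 lower in pre-supporting cells, 5 of 21 and none in coelomic epithelium, 12 of 23 and 1 in mesonephric mesenchyme, and 12 of 15 and none in supporting-like cells of the same samples. The shares of all genes higher and lower in these types were 3.34% and 4.58%, 1.88% and 1.94%, 2.23% and 1.93%, and 1.84% and 1.35% in the same order.

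Some genes of S phase were lower in the E11.5 KO. Uhrf1, which helps to maintain DNA methylation, stood at 69.3, 31.4, 41.6 and 69.8 CPM, Mcm5, of the replicative helicase, at 97.5, 55.7, 53.2 and 88.9 CPM, and Dtl at 59.6, 30.7, 56.1 and 54.9 CPM. Of 30 S phase genes tested 6 were past 1.5-fold lower in the E11.5 KO and none higher, against 2.22% and 1.9% of all genes, with a median 0.27 under that of all genes. None of 30 G2/M genes passed in either direction, and their median was 0.18 under that of all genes. Relative log2 ratios were -1.01 (-1.29 to -0.74) for Uhrf1 and -0.68 (-0.90 to -0.46) for Mcm5. In pre-supporting cells, coelomic epithelium, mesonephric mesenchyme and supporting-like cells, none of 31, 42, 42 and 15 S phase genes tested passed lower. The shares of all genes lower there were 4.58%, 1.94%, 1.93% and 1.35%. The medians of the S phase genes were 0.09, -0.20, 0.00 and -0.04 in the same order. In pre-supporting cells 1 passed higher, against 3.34% of all genes. Cdkn1c, a CDK inhibitor, stood at 864, 930.5, 594 and 1114 CPM and was below 1.5-fold in the E11.5 KO.

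**Figure D4:**
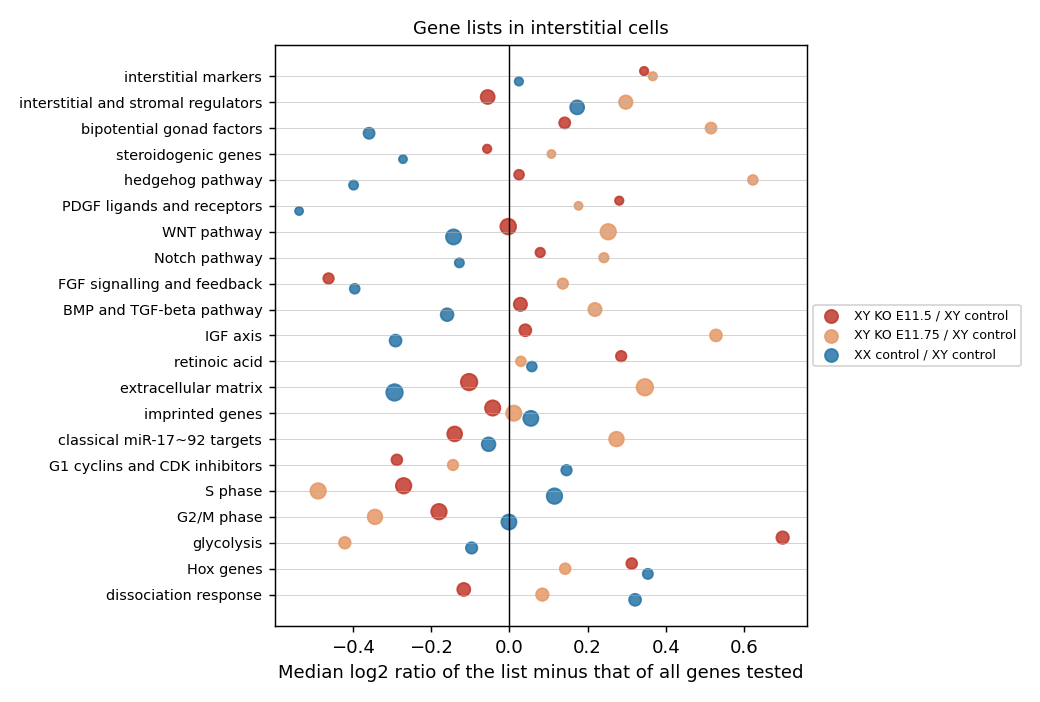
Median log2 ratio over the XY control of each gene list minus that of all genes tested (x axis) for the E11.5 KO, the E11.75 KO and the XX control (colours) in interstitial cells, one list per line and without the marker lists of other cell types and a short list of sex-linked genes and the Mir17hg transcript, with larger points for lists with more genes tested. Among the lists drawn glycolysis lies farthest right in the E11.5 KO at 0.70, and S phase lies at -0.27 there and at -0.49 in the E11.75 KO.

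The E11.75 KO stood farther from the XY control. Of 6404 genes tested 494 were past 1.5-fold higher (7.71%) and 791 lower (12.4%), with stage and deletion confounded. Set against the E11.5 KO, which shares the deletion, 602 of 6362 genes were higher (9.46%) and 1163 lower (18.3%). The log2 ratio moved with 3′ UTR length over genes, with Spearman's rho of 0.473 over 6290 genes for the E11.75 KO over the XY control and 0.511 over 6253 genes for the E11.75 KO over the E11.5 KO, as a description over genes of the same libraries. The corresponding rho was -0.199 for the E11.5 KO and -0.304 for the XX control. With genes split into 10 classes of 3′ UTR length and each set against its own class, the E11.75 calls were 393 higher and 509 lower over the XY control and 493 and 618 over the E11.5 KO. The part of library preparation in this trend was not tested.

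Some interstitial genes were among those high at E11.75. Pdgfra and Wnt5a had relative log2 ratios of 1.13 (1.03 to 1.22) and 1.35 (1.22 to 1.48) over the XY control and of 0.72 (0.63 to 0.81) and 0.64 (0.52 to 0.75) over the E11.5 KO. Tcf21 went the other way, with -0.72 (-0.82 to -0.62) over the E11.5 KO. Both Tcf21 and Nr2f1 had lower CPM in the E11.75 KO than in the XY control, as given above. Over the XY control 2 of the 4 markers were past 1.5-fold higher and none lower. Set against genes of similar 3′ UTR length, none of the 4 markers was past 1.5-fold in either direction over the E11.5 KO, and 2 were past 1.5-fold higher over the XY control. Maf, which encodes a transcription factor of interstitial cells, stood at 184, 129.8, 345 and 190.0 CPM, so that the E11.5 KO was lowest and the E11.75 KO highest. Of 21 interstitial and stromal regulators tested over the XY control 6 were past 1.5-fold higher and 2 lower, against 7.71% and 12.4% of all genes. All 15 leading genes were above the median gene in the E11.75 KO over the E11.5 KO, 13 of them past 1.5-fold, against 9.46% of all genes. With the genes picked in the XX control instead, 11 of 15 were above it, 10 past 1.5-fold higher and 1 lower. Over the XY control 13 of the 15 genes first chosen were above the median gene, with 5 past 1.5-fold higher and none lower, while 9 of the 15 picked in the XX control were above it, with 4 higher and 3 lower, against 7.71% and 12.4% of all genes. Of the first choice over the E11.5 KO, Col6a3 gave the largest ratio, 1.49 (1.27 to 1.71). Slit2, a secreted guidance protein outside the first choice, stood at 228, 102, 391 and 164 CPM with 1.69 (1.53 to 1.84).

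Of 8 hedgehog genes tested 4 were past 1.5-fold higher in the E11.75 KO over the XY control, against 7.71% of all genes. They were Gli2 with 1.12 (0.75 to 1.5), Ptch1 with 0.86 (0.57 to 1.15), Cdon with 0.75 (0.41 to 1.09) and Boc with 0.72 (0.41 to 1.03), and none was lower. Set against genes of similar 3′ UTR length, 2 of the 8 passed. In the matrix list 12 of 35 were past 1.5-fold higher and 1 lower, against 7.71% and 12.4% of all genes, or 13 and 1 set against genes of similar 3′ UTR length, with Fbn2, a microfibril protein, at 249.6, 318, 611 and 166 CPM. Igfbp5, an IGF binding protein, stood at 1363, 1656, 3162 and 829 CPM and Igf1 at 45.5, 59.4, 104 and 20.0 CPM, and 7 of 15 genes of the IGF axis were past 1.5-fold higher and 1 lower. Set against genes of similar 3′ UTR length 6 IGF genes were higher, and over the E11.5 KO, where 9.46% of all genes were higher, the 7 higher became 3. By that reference 902 of 6290 genes passed in either direction over the XY control and 1111 of 6253 over the E11.5 KO. For Fbn2, Igfbp5 and Igf1 the order of samples was the same, with the E11.75 KO highest and the XX control lowest. Dlk1, an imprinted gene of progenitors, stood at 247, 289.7, 513 and 183 CPM. Bmp4, a ligand, was lower at 36.7, 22.9, 13 and 48.3 CPM.

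Contractile genes were low at E11.75. Tagln stood at 64.2 CPM in the XY control, 69.4 in the E11.5 KO, 13.4 in the E11.75 KO and 143 in the XX control, and Acta2 at 87.4, 88.5, 42.4 and 204 CPM. Both encode proteins of smooth muscle. Rgs5, a pericyte gene, stood at 104, 46.3, 37.9 and 131 CPM, low in both KO samples. The 10 pericyte and smooth muscle markers summed to 459, 398, 295 and 701 CPM, none was at 0 in any sample, and 4 of 5 tested were past 1.5-fold lower in the E11.75 KO over the XY control, against 12.4% of all genes. Whether these values came from a few contractile cells or from all interstitial cells was not tested. Genes with short 3′ UTRs were more often lower in the E11.75 KO over the XY control. In the shortest of 3 classes of length, up to 878 bases, 25.2% of genes without a predicted site of the deleted miRNAs were past 1.5-fold lower. Tagln and Acta2, with 3′ UTRs of 752 and 577 bases, fall in this class, whereas Rgs5, with 3473, does not. Of 30 S phase genes 12 were past 1.5-fold lower in the E11.75 KO and of 26 G2/M genes 11, Birc5 among them at 84.9, 81.2, 40.5 and 88.0 CPM, against the same 12.4% of all genes, and none was higher. These counts and the pericyte count are not set against genes of similar 3′ UTR length. Over the E11.5 KO 9 of 26 G2/M genes were lower, or 5 lower and 1 higher by that reference. For S phase 4 of 29 were lower over the E11.5 KO by either reference. Other genes lowest in the E11.75 KO over the E11.5 KO were Lmo1, Cbln1, Bex1, Chchd10 and Gsta4, with ratios from -2.17 to -1.66. Those highest were Egr1 with 2.77 (2.49 to 3.08), Sorbs2, Sema5a, Gfra2, Slit2 and Slc4a4.

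Of 6365 genes tested 100 were past 1.5-fold higher in the XX control than in the XY control (1.57%) and 205 lower (3.22%). With only cells of 3000 to 15000 UMIs, thinned to 3000, which left 127 cells of the XX control and left out 100, there were 980 calls, of which 172 were shared with these and 2 were opposite. The parts of thinning and of the smaller set of cells in this count were not tested. Apart from Xist, with 2764 UMIs against 0, and its antisense partner Tsix, with 379 against 0, the highest genes were Nefm, a neurofilament gene, at 12.6 CPM in the XY control and 53.4 in the XX control, Egr1, Junb and Ebf1, at 15.4 and 37.9 CPM. Among the lowest were Tpm3-rs7, a near-copy of Tpm3 whose counts are uncertain, at 81.3 and 4.77 CPM, Mid1, an X-linked ubiquitin ligase gene, at 115 and 15.5 CPM, and Pdzd2, at 44.0 and 11.9 CPM, with Naaa and Tspan9. Mid1 had a relative log2 ratio of -2.78 (-3.23 to -2.38). Breeding, depth and filtering differ together with sex in this comparison and cannot be told apart.

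Of all genes 1.57% were higher and 3.22% lower in the XX control, beside which the following counts stand. The XX control was past 1.5-fold lower for Podxl, a sialomucin, and Nr5a1, the regulator of steroidogenic genes, 2 of 12 bipotential factors, with ratios of -1.22 (-1.63 to -0.83) and -0.93 (-1.38 to -0.51). Ptch1 and Boc were 2 of 6 hedgehog genes lower, with -0.60 (-1.0 to -0.23) and -0.89 (-1.33 to -0.47), Igf1 was 1 of 4 lower among 15 genes of the IGF axis, with -1.08 (-1.51 to -0.69), and no gene of these 3 lists was higher. Acta2 and Tagln were higher, with 1.32 (1.14 to 1.5) and 1.25 (1.04 to 1.46), as were the Hox genes Hoxc9, at 53.3 and 91.3 CPM, and Hoxa9, at 28.0 and 43.5 CPM. None of 30 S phase genes passed in either direction. Of 15 genes of the dissociation response 6 were higher and none lower, again against 1.57% and 3.22%. The comparisons of the E11.5 KO, the E11.75 KO and the XX control share the XY control, so their ratios for a gene are not independent.

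The KO ratio of a gene in interstitial cells was set beside that in neighbouring types of the same 2 samples. H19 was low in every one of them, from -5.27 in supporting-like cells to -6.58 in mesonephric mesenchyme, as was Mylip high, from 0.65 in mesonephric mesenchyme to 1.75 in pre-supporting cells. A gene past 1.5-fold in opposite directions was rare, with 2 of 6779 genes against pre-supporting cells, 2 of 7036 against coelomic epithelium and 4 of 7084 against mesonephric mesenchyme. Plxna4 and Lmo4 were picked as extremes of the difference from pre-supporting cells, and Rspo1 and Alx1 of that from mesonephric mesenchyme. Their gaps are thus large by choice. Plxna4 was 1.32 in interstitial and -0.22 in pre-supporting cells. Lmo4 was 0.25 against -1.58. Rspo1 was 1.31 in interstitial cells, 0.95 in pre-supporting cells and -0.07 in mesonephric mesenchyme, on 1428 and 1026 UMIs in pre-supporting and 939 and 1028 UMIs in mesenchymal cells of the KO and the control. Alx1 was -1.35 in interstitial cells and -0.14 in mesonephric mesenchyme. As a list, matrix genes had a median 0.10 under that of all genes in interstitial cells, but 0.45 above in pre-supporting cells, 0.28 in coelomic epithelium and 0.27 in mesonephric mesenchyme, with 10 of 31, 7 of 34 and 9 of 43 past 1.5-fold higher in those types, against 3.34%, 1.88% and 2.23% of all genes. Of the FGF genes 3 of 10, 3 of 8, 6 of 13 and 2 of 19 were past 1.5-fold lower in the same 4 types, against 2.22%, 4.58%, 1.94% and 1.93% of all genes, and 1 was higher in each of the first 2 types. Their medians relative to all genes were -0.46, -0.38, -0.48 and -0.12 in that order. With 1 sample per group these differences between types were not tested.

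Since the KO cells lack the miRNAs, the genes with predicted sites were examined. Such a site of 8 bases, an 8mer, matches the seed and carries an A at its 3′ end. The longest annotated 3′ UTR of each gene was searched on its own strand for GCACTTTA (miR-17), GCACCTTA (miR-18), TTTGCACA (miR-19) and GTGCAATA (miR-92), and 2204 of 17351 genes held an 8mer of any of the 4 families. The windows below are read along the transcript from the GRCm38 genome with the GENCODE M21 annotation, with the 8mer in capitals. They are shown because Mylip and Plxna4 were among the genes highest in the E11.5 KO and on the same side in the E11.75 KO. Sema5a was among those highest in the E11.75 KO over the E11.5 KO.
Mylip, miR-92 site at chr13:45411710-45411717: ctcatcggGTGCAATActagctaa
Mylip, miR-19 site at chr13:45411824-45411831: tttgtttcTTTGCACAgacatttt
Plxna4, miR-19 site at chr6:32148084-32148091: atttaagtTTTGCACAgttagaaa
Sema5a, miR-17 site at chr15:32689824-32689831: ataaccagGCACTTTAatctgaga
Sema5a, miR-19 site at chr15:32692197-32692204: agagaattTTTGCACAttgtatag
Sema5a, miR-18 site at chr15:32692431-32692438: tactcataGCACCTTAgtaccttt

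Plxna4 is on the minus strand and the other 2 genes on the plus strand. Mylip stood at 20.8 and 20.4 CPM in the runs of the XY control and at 42.4 and 48.8 in those of the E11.5 KO. Sema5a, a semaphorin, stood at 21.5, 11.6, 55 and 11.9 CPM, so that this gene with 3 sites was lower in the E11.5 KO and higher in the E11.75 KO than in the XY control. Alcam and Rspo1, also among the highest genes, held no 8mer, and of the 7mers matching a part of it Alcam held 2 and Rspo1 none. A match of letters does not show that a site is used.

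Over all genes tested in the E11.5 KO, 1004 had an 8mer and 5957 had none, and the difference between their median log2 ratios was 0. Past 1.5-fold higher were 2.09% of genes with a site and 1.81% without, and lower 1.89% and 2.22%. Within 3 equal classes of 3′ UTR length the median with a site lay 0.046, 0.043 and 0.039 above that without, from shortest to longest. Of the families, the 131 tested genes with a miR-18 site had 3.82% past 1.5-fold higher and none lower, on 5 genes. Among 27 classical targets tested, genes written from general knowledge, only Mylip passed higher and none lower in the E11.5 KO, against 1.9% and 2.22% of all genes. Bcl2l11, a pro-apoptotic gene with sites for miR-17 and miR-92, had -0.18 (-0.40 to 0.05), an interval that holds 0.

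In the E11.75 KO over the XY control 15.4% of the 914 genes with a site were past 1.5-fold higher, against 6.21% of those without, and 4.49% against 13.8% lower, with medians 0.27 apart and no test of the difference. Genes with a site had a median 3′ UTR of 2781.5 bases and those without of 1261, and the log2 ratio moved with 3′ UTR length as given above. Within the 3 classes of length the difference was 0.239, 0.102 and 0.088 from shortest to longest, and against genes of the same class among 10 classes of length it was 0.084. In the XX control over the XY control, where no miRNA was deleted, the difference was -0.09 and within the 3 classes it was -0.106, 0.016 and -0.011. Mylip had 1.04 (0.64 to 1.44) at E11.75, and 6 of 26 classical targets were past 1.5-fold higher and none lower, against 7.71% and 12.4% of all genes.

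**Figure D5:**
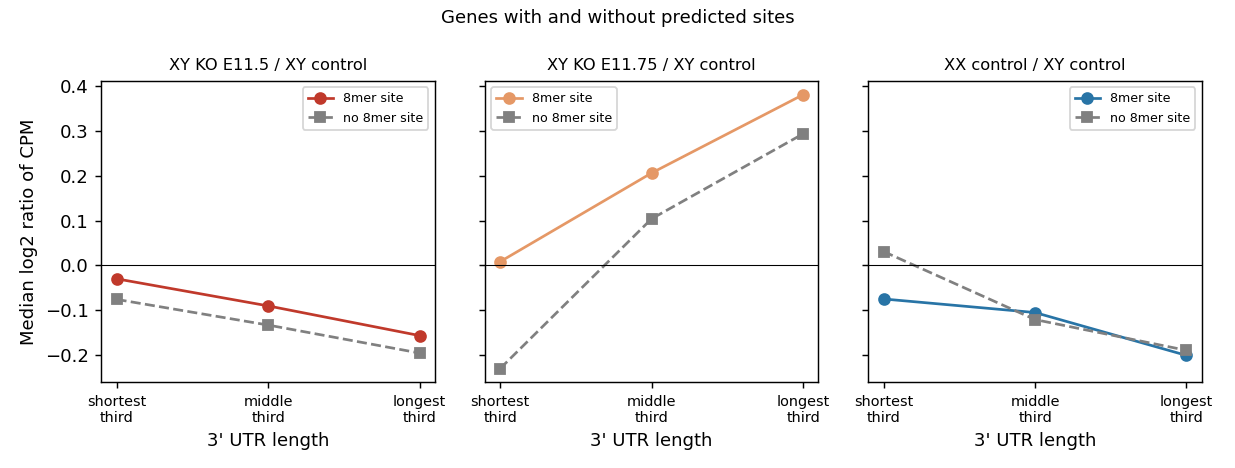
Median log2 ratio to the XY control (y axis, not relative to the median gene) of genes with an 8mer site and of genes without one, in 3 classes of 3′ UTR length (x axis), for the E11.5 KO, the E11.75 KO and the XX control (panels). In the E11.75 KO both lines climb with length, and the gap between them is 0.239 in the shortest class and 0.088 in the longest.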

How the data were processed

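Single cells of gonads with mesonephros were dissociated with trypsin, fixed in methanol and run on the 10x 3′ v3.1 chemistry. The authors aligned the reads to mm10 with Cell Ranger 6.1.1, removed doublets and integrated the libraries with Seurat, and they deposited raw UMI counts of 21495 genes in 52745 cells with an annotation of 13 cell types and, per the file headers, the percent of mitochondrial and haemoglobin UMIs of each cell. The 126435795 values above 0 were all whole numbers.

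Cells named interstitial were summed per sample. Members and gene lists were chosen with earlier results of these data known. With 1 sample per group no test was made. Log2 ratios of CPM used a prior count of 0.5 and exact binomial intervals, levels used exact Poisson intervals and shares used Clopper-Pearson intervals, all at 95% and covering counting error only. Genes were tested from a sum of 200 UMIs in the samples compared, and those at least 1.5-fold from the median gene were called. Shares of cells with a UMI were computed after thinning each cell to 3000 UMIs. Named genes were the 15 leading genes, all members of the marker, hedgehog, PDGF and steroidogenic lists, and the ends of the other lists. Added by size were the genes at both ends of each comparison. So were those with the largest differences between the E11.5 KO ratio in interstitial cells and that in pre-supporting cells or mesonephric mesenchyme. The choices by size left out 124 mitochondrial, ribosomal and globin genes. Some genes that this rule names are not reported here. Sites were searched in the longest 3′ UTR of 17351 genes. The calculations were checked on simulated counts. Python 3.11.15, numpy 2.4.6, pandas 2.3.3, scipy 1.17.1, matplotlib 3.10.9, R 4.3.3 and edgeR 4.0.16, used for TMM factors, were run. Alternatives were other minimum counts, scalings, thinning depths and denominators, and genes of similar 3′ UTR length as the reference.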

Additional observations from a re-analysis of the deposited data

Results flagged for a closer look

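Of the genes named by the rule in the methods, 6 were past 1.5-fold in opposite directions in interstitial cells and a neighbouring type. The comparison was the E11.5 KO over the XY control, and the difference between types was not tested. All of these genes but Plagl1 were named for the size of this same difference, so their gaps are large by choice. Ngfr, a neurotrophin receptor gene, had a relative log2 ratio 1.80 lower in interstitial than in pre-supporting cells (-1.80, from -0.70 against 1.10). Plagl1, an imprinted transcription factor gene, had -0.59 in interstitial cells against 0.61 in coelomic epithelium, a difference of -1.20. Against mesonephric mesenchyme the differences were 1.31 for Kcnd2 (0.72 against -0.59), 1.31 for Lgals7 (0.59 against -0.72), 1.32 for E330013P04Rik (0.62 against -0.70) and -1.47 for Cck (-0.73 against 0.75). Lgals7 stood at 130.2 CPM in interstitial cells of the XY control and 179.9 in the E11.5 KO.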

How the results depend on the processing

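No paired analysis was possible because each group was 1 sample, and for the same reason no replicate could be left out. Other scalings (TMM, totals without mitochondrial, ribosomal and globin genes) cannot change calls made relative to the median gene. Over all cells the interstitial share was 5.55%, 6.98%, 8.44% and 6.19% (XY control, the E11.5 KO, the E11.75 KO, XX control), without Sertoli and pre-supporting cells 26.8%, 32.5%, 36.8% and 36.1%, and without germ cells 19.5% in the XY control. With a minimum of 100 UMIs 259 genes were higher and 304 lower in the E11.5 KO, and 222 and 365 in the XX control. With 500 the counts were 47 and 45, 281 and 343 in the E11.75 KO, 20 and 77 in the XX control, and 370 and 591 in the E11.75 KO over the E11.5 KO. With only cells of 3000 to 15000 UMIs, thinned to 3000 (the restricted cells, 127 of the XX control), the XX control had 336 and 644 calls, of which 172 were shared with the 305 reported. Set against genes of the same class among 10 classes of 3′ UTR length, chosen after seeing the data, 509 genes were lower in the E11.75 KO over the XY control and 618 over the E11.5 KO, and 625 of the 1285 and 727 of the 1765 calls reported there were kept.

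Some list medians changed sign, PDGF genes in the E11.75 KO over the E11.5 KO from 0.72 to -0.13 with a minimum of 100, imprinted genes there from 0.05 to -0.14 by length class, and S phase in the XX control from 0.12 to -0.36 in the restricted cells. Others moved, classical targets in the E11.75 KO at 0.14 and, over the E11.5 KO, S phase at -0.052, both by length class, S phase in the E11.75 KO at -0.33 with a minimum of 500, and in the XX control G2/M at -0.17 in the restricted cells and at -0.11 by mean CPM. The difference of genes with and without a site, with 7mers counted too, was -0.045 in the E11.5 KO, 0.31 in the E11.75 KO, -0.13 in the XX control and 0.37 in the E11.75 KO over the E11.5 KO. By length class it was 0.046, 0.084, -0.0024 and 0.047. At 5000 UMIs per cell the difference in cells with a UMI was -2.26 percentage points for Pdgfra in the E11.5 KO, 17.4 for Pdgfra and 25.9 for Wnt5a in the E11.75 KO, and -1.78 for Tcf21 in the XX control. Without thinning it was 3.89 for Tcf21 and 16.8 for Wnt5a in the E11.5 KO, and in the XX control 21.4 for Pdgfra, 21.6 for Tcf21, 37.1 for Wnt5a and 35.7 for Nr2f1. The sign changed for Pdgfra in the E11.5 KO and Tcf21 in the XX control at 5000 UMIs and, without thinning, for Tcf21 in the E11.5 KO and for Pdgfra and Wnt5a in the XX control. The cause of these changes was not tested. Of the named genes' ratios 152 moved and 640 did not by length class, and 138 and 674 in the restricted cells, and some calls were lost under both, though no called gene named in the text changed direction.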
